A study of Mus musculus with 8 samples.

Results

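The collagen genes encode the chains from which the extracellular matrix of the artery wall is built. They were taken here as every probe, other than control probes, whose gene name in the array files has the form Col, a type number, the letter a and a chain number. That rule found 78 of the 41174 probes on the array, for 40 collagen chains. For 30 chains a probe exceeded background on 4 or more of the 8 arrays, and these 30 were among the 14883 genes tested. The other 10 chains were too dim for a test. RNA came from primary vascular smooth muscle cells, the contractile cells of the vessel wall, grown from the aortas of C57BL/6 mice. There were 4 independent cultures in each of 2 groups. The AngII+CsA cultures were given 1 µM angiotensin II, a peptide hormone that contracts arteries and drives remodelling of their wall, and 200 ng/ml cyclosporin A, which binds cyclophilins and thereby blocks the phosphatase calcineurin. The AngII cultures were given 1 µM angiotensin II alone. All 8 cultures were grown in medium with serum and all received angiotensin II, so the response of the collagens to angiotensin II itself was not measured. The comparison addresses which transcripts of cells with angiotensin II are sensitive to cyclosporin, and the time of exposure is not given in the sources used here.

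A collagen molecule is a triple helix of 3 chains, identical or different, which wind together in the endoplasmic reticulum after their prolines and lysines are hydroxylated. Fibrillar collagens of types I, III and V form the tension-bearing fibrils of the media and adventitia. Type IV chains form the sheet of the basement membrane around each smooth muscle cell, type VI chains form beaded filaments, and type VIII chains form the network made by endothelial cells and by smooth muscle cells that migrate. Fibril-associated collagens sit on the surface of fibrils, and transmembrane collagens are anchored in the cell membrane. Smooth muscle cells in culture make many of these chains.

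Levels are log2 of the probe's signal over the 75th percentile of all spots on the same array, so that 0 is that percentile and 1 unit is a doubling. Levels of different probes are not comparable with each other, since each probe has its own brightness. On each array between 42.8% and 51.7% of the 43379 spots were above background, and no spot was saturated. The signal at the 75th percentile lay between 65.2 and 125 and was lowest on the 2 arrays of replicate 3. The 2 arrays that bear one replicate number lay on one slide, scanned together, so that culture and slide cannot be told apart, and the comparison was made within numbers. Of 8 smooth muscle markers, 6 were above background on all 8 arrays, among them Acta2, Tagln and Myh11. The endothelial genes Pecam1, Cdh5 and Tie1, the macrophage gene Adgre1 and the T cell gene Cd8a were above background on none. Other markers of those cells were above background on all 8 arrays: Tek of the endothelial list, Cd68, Csf1r and Cd14 of the macrophage list and Cd3e, Cd4 and Cd2 of the T cell list.

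For the collagen chains, as over all genes, few or no treatment differences passed the adjusted threshold, while most differences between replicate numbers did. With cyclosporin 12 chains were higher and 18 lower, by a median of -0.04 on the log2 scale, against -0.03 over all genes tested. None of the 30 passed an adjusted p of 0.05 in limma's test, which 0.0269% of all genes did. At an unadjusted p under 0.05 only Col7a1 remained, 1 of 30 (3.33%), against 5.31% of all genes. The 95% interval of the difference lay between -1 and 1 for each of the 30 chains, and between -0.5 and 0.5 for 23 of them, so that a doubling or halving lay outside every interval. By contrast, 24 of 30 chains (80%) differed between replicate numbers at an adjusted p under 0.05, against 68% of all genes. After quantile normalization the shares were 56.7% of the chains and 54.9% of all genes. Between the lowest and the highest number the chains differed by a median of 1.09 on the log2 scale, or 2.13-fold, against 1.87-fold over all genes. The split into 12 higher and 18 lower chains moved with the scaling: it was 23 higher and 7 lower when arrays were scaled to their median, where the median difference over all genes was 0.07, and 18 higher and 12 lower with another background correction (normexp).

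**Figure D1:**
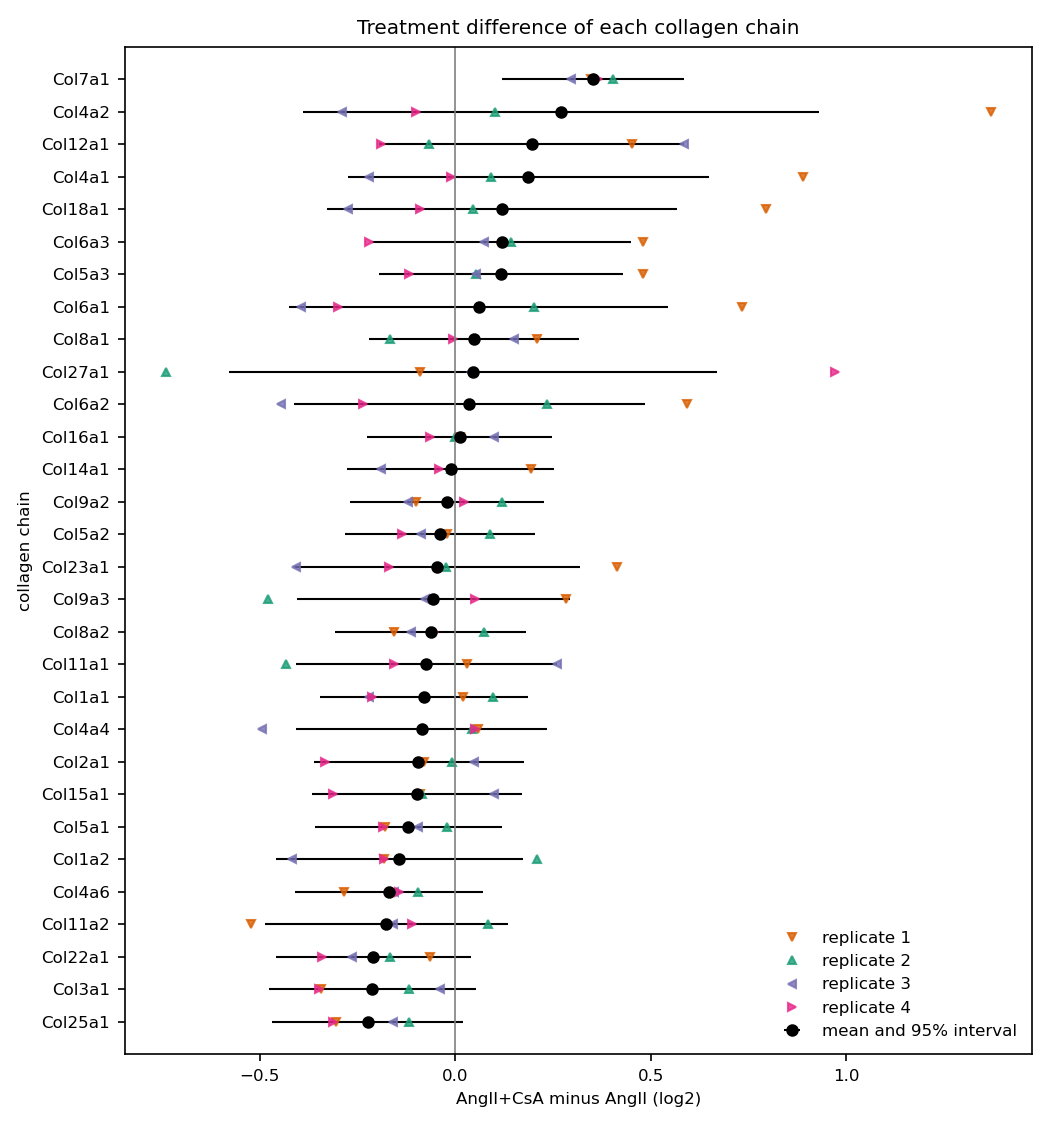
Difference between AngII+CsA and AngII cultures for each of the 30 tested collagen chains (log2, horizontal axis), ordered by size. Black points and bars give the mean with its 95% interval and coloured triangles the 4 within-number differences. Col7a1 stands highest, with all 4 triangles between 0.297 and 0.403, and the replicate 1 triangles of Col4a2, Col4a1, Col18a1, Col6a1 and Col6a2 lie beyond 0.5.

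Col7a1 had the smallest p of the 30 chains. It encodes the chain of the anchoring fibrils, best known from the junction of skin and its basement membrane. Its level was 2.90, 3.21, 2.97 and 2.56 in AngII+CsA cultures 1 to 4, against 2.55, 2.80, 2.67 and 2.19 in AngII cultures 1 to 4. Each AngII+CsA culture lay above the AngII culture of its number, although the groups overlapped as wholes. The group means were 2.91 ± 0.27 with AngII+CsA and 2.55 ± 0.26 with AngII (SD, n = 4 each). The difference was 0.35 (95% interval 0.12 to 0.59), or 1.28-fold (1.09 to 1.5), with within-number differences of 0.35, 0.40, 0.30 and 0.37. In limma's test its unadjusted p was 0.00946 and its adjusted p 0.886, so the difference did not pass. Across the alternative settings it lay between 0.34 and 0.45, and the smallest adjusted p was 0.153. The chain was read by a single probe on the array, at chr9:108695073-108695132 on the plus strand in build mm7, the build of all probe positions given here, for which no annotation was used.

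Of the 30 chains, 6 (20%) went the same way in all 4 numbers, against 14.9% of all genes. Col7a1 was the single one that was higher in 4 of 4, which 4.78% of all genes were. Lower in 4 of 4 were Col25a1, Col22a1, Col3a1, Col4a6 and Col5a1, 5 of 30 (16.7%) against 10.1% of all genes. None of these 5 passed the test, with adjusted p between 0.886 and 0.917.

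Col25a1, a transmembrane collagen known from neurons, had levels of -1.27, -0.74, -1.12 and -1.06 in AngII+CsA cultures 1 to 4 and of -0.97, -0.62, -0.96 and -0.75 in AngII cultures 1 to 4. The difference was -0.22 (95% interval -0.47 to 0.02; unadjusted p = 0.0663 and adjusted p = 0.886 by limma). Col4a6, a basement membrane chain known from smooth muscle, read 1.997, 2.101, 2.028 and 2.278 with AngII+CsA and 2.281, 2.195, 2.185 and 2.421 with AngII. In each number the AngII+CsA culture was the lower one, by 0.28, 0.10, 0.16 and 0.14, and the interval of the mean difference of -0.17 reached from -0.41 to 0.07. Col4a6 also varied least of the 30 chains between numbers, by 0.24, and did not pass the replicate test (adjusted p = 0.39).

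Among the fibrillar collagens, 2 chains were higher and 8 lower with AngII+CsA, with differences between -0.21 and 0.12 and none past the test. The split was 6 higher and 4 lower with median scaling and 5 and 5 with normexp. Col1a1 and Col1a2 encode the 2 chains of type I collagen, the main fibril of the artery wall. Col1a1 read 10.09, 9.97, 10.49 and 10.10 in AngII+CsA cultures 1 to 4, against 10.07, 9.87, 10.71 and 10.31 in AngII cultures 1 to 4. Col1a2 read 11.59, 11.47, 11.81 and 11.36 in AngII+CsA cultures 1 to 4, against 11.77, 11.26, 12.23 and 11.54 in AngII cultures 1 to 4. For both chains the groups overlapped throughout. The difference of Col1a1 was -0.08 (95% interval -0.35 to 0.19) and that of Col1a2 -0.14 (-0.46 to 0.17). The array held 2 more Col1a1 probes above background, which did not give the same answer: their differences were -0.02 and 0.33. The probe with 0.33 gave 8.09, 7.93, 9.24 and 8.68 in AngII+CsA cultures against 6.90, 7.66, 9.30 and 8.76 in AngII cultures, so that its difference came from number 1 (1.19) and number 2 (0.27) while numbers 3 and 4 gave -0.07 each. Whether these probes read different Col1a1 transcripts was not tested.

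Col3a1, the chain of type III collagen, which gives arteries their tensile strength and is mutated in vascular Ehlers-Danlos syndrome, read 8.60, 8.25, 9.64 and 8.85 in AngII+CsA cultures 1 to 4. The AngII cultures 1 to 4 read 8.94, 8.37, 9.68 and 9.20. The AngII+CsA culture was lower in all 4 numbers, by 0.34, 0.12, 0.04 and 0.35, and the mean difference of -0.21 had an interval of -0.48 to 0.05 (adjusted p = 0.886). A second Col3a1 probe gave -0.17 and was also lower in all 4 numbers. Col5a1 and Col5a2 encode chains of type V collagen, which starts fibrils and limits their width. Col5a1 read 9.59, 9.37, 10.57 and 9.96 with AngII+CsA, against 9.77, 9.39, 10.66 and 10.14 with AngII. Its difference was -0.12 (95% interval -0.36 to 0.12). A second Col5a1 probe gave -0.01 and was not lower throughout: its differences in numbers 1 to 4 were 0.40, 0.05, -0.25 and -0.23. Col5a2 read 5.79, 5.78, 6.56 and 6.14 with AngII+CsA, against 5.81, 5.69, 6.65 and 6.27 with AngII, a difference of -0.04 (-0.28 to 0.20).

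The tested probes of 7 fibrillar chains shared their highest and lowest replicate number. Col1a1, Col1a2, Col3a1, Col5a1, Col5a2, Col5a3 and Col11a1 were each highest in number 3 and lowest in number 2, taking the mean of the 2 arrays of a number. Col3a1 spanned 1.35 between those numbers (2.55-fold; adjusted p = 0.0043 in the replicate test), Col5a3 spanned 1.42 and Col5a1 1.23, while Col1a1 spanned 0.68 (adjusted p = 0.0337). Col1a2 spanned 0.65 and missed the threshold (adjusted p = 0.0582). The order depended on the probe and the scaling. Other probes of Col3a1, Col5a1, Col5a3 and Col11a1 and 1 of the other 2 of Col1a1 were lowest in number 1, and those of Col5a3 and Col11a1 were highest in number 4. After quantile normalization Col1a1 was highest in number 4 and no longer passed (adjusted p = 0.374), and Col5a1 was lowest in number 1, while Col3a1 stayed highest in number 3 and lowest in number 2. Over all genes, 34% were highest in number 3, against 14 of the 30 chains (46.7%), and after quantile normalization 25.3% against 9 of 30.

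The 250 bases before the annotated start of Col1a2 are shown because this is a main fibrillar chain whose promoter is among the tables used here, from RefSeq in assembly GRCm38.p6, as are all promoter bases below. Capitals mark matches of 5 motifs, searched on both strands. The TATA box was taken as the letters TATAAA and the box bound by the factor NF-Y as the letters CCAAT. The GC box, bound by Sp1, was taken as GGGCGG. For NFAT, the factor that calcineurin activates, the core GGAAA was used, and for the AP-1 factor the letters TGANTCA. A match is a description of the letters only.
Col1a2 (chr6:4505368-4505617, plus strand): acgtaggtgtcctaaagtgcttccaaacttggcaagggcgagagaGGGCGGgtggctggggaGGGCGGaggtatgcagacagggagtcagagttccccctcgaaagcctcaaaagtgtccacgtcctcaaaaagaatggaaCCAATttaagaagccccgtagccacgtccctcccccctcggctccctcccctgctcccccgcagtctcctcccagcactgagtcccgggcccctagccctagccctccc
This window held 2 GC boxes and 1 CCAAT box. Of the 40 chains, 32 had such a window, 35 windows in all. A GGAAA core was in 16 of these 35 windows (45.7%), against 55.6% of 32851 promoter windows of all genes. A GC box was in 19 of 35 (54.3%) against 32.7%, a CCAAT box in 12 (34.3%) against 33.8%, a TATA box in 5 (14.3%) against 12.4%, and an AP-1 site in 1 (2.86%) against 6.75%.

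The remaining fibrillar chains are best known from cartilage. Col2a1, the chain of the main cartilage collagen, read 3.26, 4.35, 4.03 and 5.09 in AngII+CsA cultures 1 to 4, against 3.34, 4.36, 3.98 and 5.43 in AngII cultures 1 to 4. Its treatment difference was -0.09 (95% interval -0.36 to 0.18). That value depended on the processing, and was -0.40 with outlier spots kept and -0.42 in the authors' deposited table, both outside this interval. The chain spanned 1.96 from number 1 to the higher number 4 (3.9-fold; adjusted p = 0.00196). A second Col2a1 probe, which shares 40 of its 60 bases of genome with the first, was also lowest in number 1 and highest in number 4. Col11a2 had the same lowest and highest number, with a span of 0.76. Col11a1 and Col27a1 differed by -0.07 and 0.05 between treatments, and Col27a1 was scattered even within numbers, from -0.74 in number 2 to 0.97 in number 4. The summed signal of 8 cartilage and bone markers, with the array's 75th percentile as 1, lay between 9.76 and 11.9 in AngII+CsA cultures and between 9.2 and 11.1 in AngII cultures. The sum joins markers that ran in opposite directions over the numbers. Sox9, the cartilage transcription factor, had means of 1.02, 1.88, 2.04 and 2.52 in numbers 1 to 4 (adjusted p = 0.00657 in limma's replicate test), lowest in number 1 and highest in number 4, as Col2a1 was. Runx2, the bone transcription factor, was highest in number 1 (2.92) and lowest in number 4 (2.10). Sox9, Acan and Runx2 were above background on all arrays and Matn1, Matn3, Bglap and Ibsp on none, and the part of these markers in the Col2a1 levels was not tested.

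**Figure D2:**
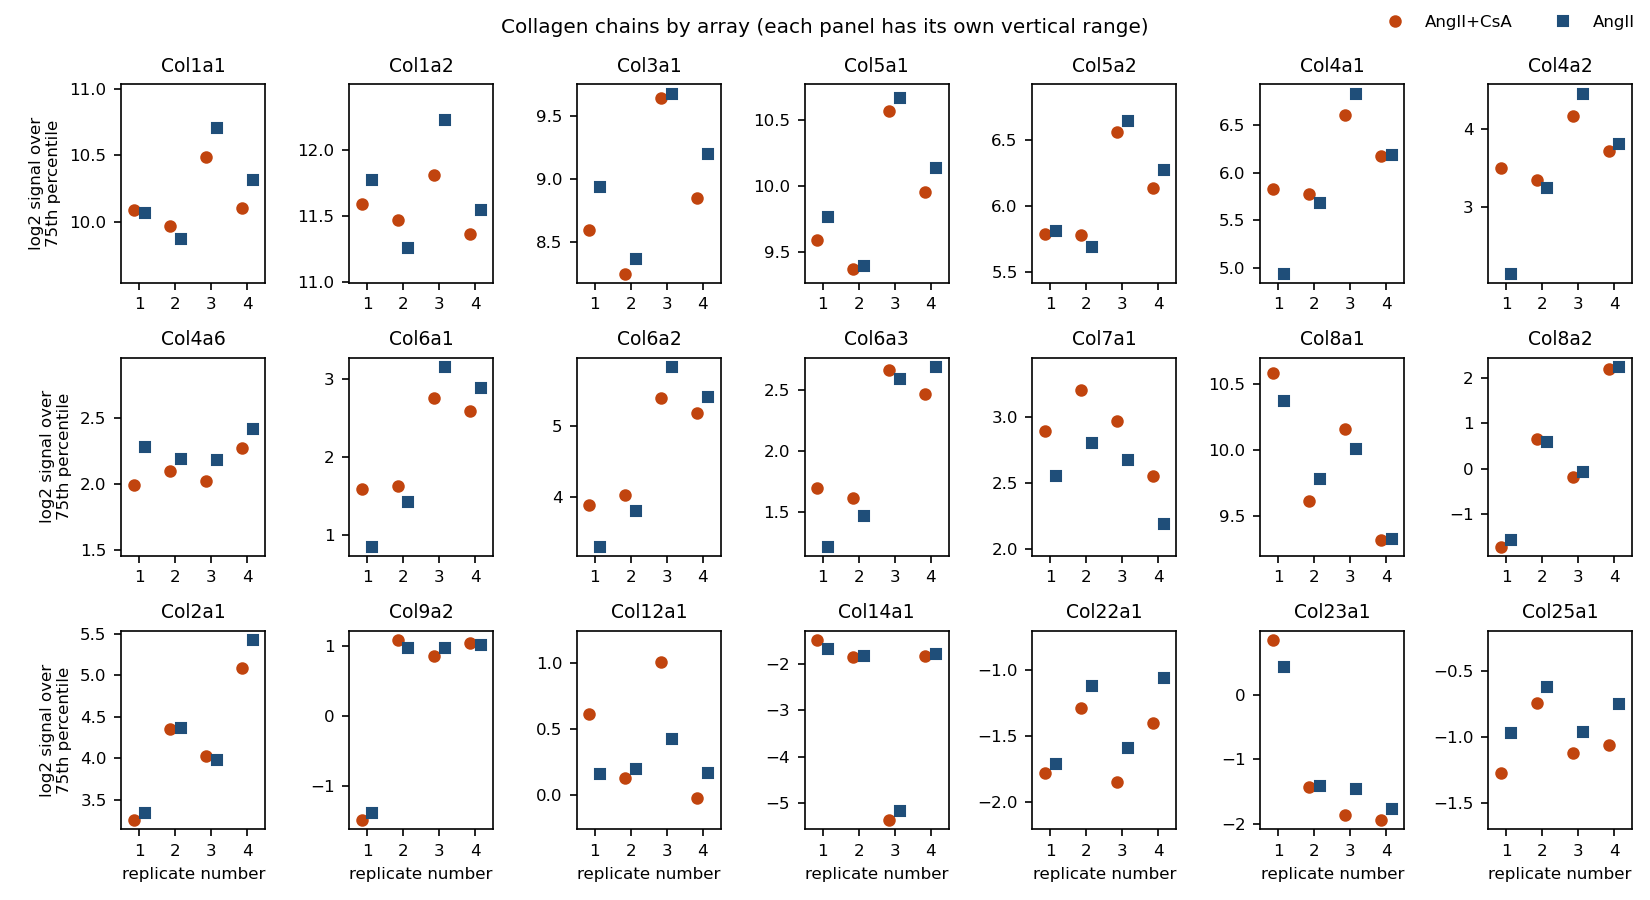
Level of 21 collagen chains on each of the 8 arrays (vertical axis, log2 signal over the array's 75th percentile; horizontal axis, replicate number), with circles for AngII+CsA and squares for AngII. In most panels the circle and the square of a number lie close together while the numbers differ, as for Col2a1 between 3.26 and 5.43, and Col7a1 shows the circle above the square in each number.

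Among the 4 tested chains of the basement membrane network, 2 were higher and 2 lower with AngII+CsA. Col4a1 and Col4a2 encode the chains of the common type IV collagen and are made together, from genes whose starts lie 21 bases apart on opposite strands of chromosome 8. Col4a1 read 5.83, 5.77, 6.61 and 6.18 in AngII+CsA cultures 1 to 4, against 4.94, 5.68, 6.83 and 6.19 in AngII cultures 1 to 4. Col4a2 read 3.50, 3.35, 4.18 and 3.72 in AngII+CsA cultures 1 to 4, against 2.13, 3.25, 4.47 and 3.82 in AngII cultures 1 to 4. The low AngII culture 1 set both differences. Col4a1 differed by 0.19 (95% interval -0.27 to 0.65; adjusted p = 0.928) and Col4a2 by 0.27 (-0.39 to 0.93; adjusted p = 0.926). Without number 1 the differences were -0.05 and -0.10. Both chains were highest in number 3 and lowest in number 1, with spans of 1.34 and 1.51, and passed the replicate test (adjusted p = 0.0204 and 0.0487). Neither passed it after quantile normalization, with adjusted p of 0.0831 and 0.0973. Col4a4, a chain known from the kidney filter, was highest in number 4, by 1.37 over number 1, and differed by -0.09 between treatments.

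The 3 tested chains of type VI collagen, Col6a1, Col6a2 and Col6a3, form one molecule that links cells to fibrils, and their probes gave the same picture. Col6a2 read 3.88, 4.03, 5.41 and 5.19 in AngII+CsA cultures 1 to 4, against 3.29, 3.79, 5.85 and 5.42 in AngII cultures 1 to 4. Numbers 3 and 4 lay above numbers 1 and 2 in both groups, and the span of 2.04 between numbers was 4.12-fold (adjusted p = 0.00374). Col6a1, named after its values were seen like Col6a3, Col8a1 and Col18a1, read 1.59, 1.62, 2.76 and 2.58 with AngII+CsA and 0.85, 1.42, 3.15 and 2.88 with AngII. Col6a3 read 1.70, 1.62, 2.67 and 2.47 with AngII+CsA and 1.22, 1.47, 2.59 and 2.69 with AngII. For both, too, every array of numbers 3 and 4 lay above every array of numbers 1 and 2, with spans of 1.73 and 1.17 (adjusted p = 0.00693 and 0.0055). The treatment differences were small, at 0.06 for Col6a1 (95% interval -0.43 to 0.55), 0.04 for Col6a2 (-0.41 to 0.48) and 0.12 for Col6a3 (-0.21 to 0.45). Number 3 was the highest in all 3 chains, but after quantile normalization number 4 was (with normexp for Col6a3 alone), and numbers 1 and 2 were the low ones in each of these settings. A second Col6a3 probe had the same highest and lowest number and a treatment difference of -0.12.

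The bases before the starts of these 3 genes are shown because their levels moved together over the arrays. Col6a1 and Col6a2 are neighbours on chromosome 10, and for Col6a2 the window is that of the farther upstream of its 2 annotated starts.
Col6a1 (chr10:76726045-76726294, minus strand): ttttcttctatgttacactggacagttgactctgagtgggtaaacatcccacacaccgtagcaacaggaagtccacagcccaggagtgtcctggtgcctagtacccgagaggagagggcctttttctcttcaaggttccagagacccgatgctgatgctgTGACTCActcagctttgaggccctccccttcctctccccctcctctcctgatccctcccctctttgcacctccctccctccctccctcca
Col6a2 (chr10:76623631-76623880, minus strand): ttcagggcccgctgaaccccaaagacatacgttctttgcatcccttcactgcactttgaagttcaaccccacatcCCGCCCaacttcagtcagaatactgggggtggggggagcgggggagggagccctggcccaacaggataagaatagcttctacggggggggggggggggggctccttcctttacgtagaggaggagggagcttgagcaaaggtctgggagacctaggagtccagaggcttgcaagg
Col6a3 (chr1:90843972-90844221, minus strand): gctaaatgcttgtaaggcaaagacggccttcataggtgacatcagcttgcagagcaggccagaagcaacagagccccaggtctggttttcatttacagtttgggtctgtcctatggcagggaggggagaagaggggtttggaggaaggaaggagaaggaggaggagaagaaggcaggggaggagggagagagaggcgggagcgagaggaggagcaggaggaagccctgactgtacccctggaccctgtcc
No motif of the 5 was common to the 3 windows: that of Col6a1 held 1 AP-1 site, that of Col6a2 1 GC box and that of Col6a3 none of them. The window of the other annotated Col6a2 start, not shown, held 3 GC boxes and 3 GGAAA cores.

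Type VIII collagen, the short-chain collagen of the vessel wall, has the chains Col8a1 and Col8a2, and these varied in opposite orders. Col8a2 read -1.73, 0.65, -0.18 and 2.19 in AngII+CsA cultures 1 to 4, against -1.57, 0.58, -0.07 and 2.25 in AngII cultures 1 to 4. The 2 cultures of a number lay within 0.16 of each other, while numbers 1 and 4 differed by 3.87, or 14.6-fold, the widest span of the 30 chains (adjusted p = 0.000454). Col8a1 read 10.58, 9.62, 10.16 and 9.32 with AngII+CsA, against 10.37, 9.78, 10.01 and 9.32 with AngII. It was highest in number 1 and lowest in number 4, with a span of 1.15 (2.23-fold; adjusted p = 0.00624), under quantile and median scaling too. The second Col8a1 probe did not share that order: its means in numbers 1 to 4 were -0.15, 0.31, -1.94 and 0.36. The treatment differences were 0.05 for Col8a1 (95% interval -0.22 to 0.32) and -0.06 for Col8a2 (-0.31 to 0.18).
Col8a1 (chr16:57754738-57754987, minus strand): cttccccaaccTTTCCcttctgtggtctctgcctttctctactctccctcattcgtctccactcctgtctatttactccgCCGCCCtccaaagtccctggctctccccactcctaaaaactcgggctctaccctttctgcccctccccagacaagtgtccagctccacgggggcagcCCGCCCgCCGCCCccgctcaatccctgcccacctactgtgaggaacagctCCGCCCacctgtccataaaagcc
Col8a2 (chr4:126286544-126286793, plus strand): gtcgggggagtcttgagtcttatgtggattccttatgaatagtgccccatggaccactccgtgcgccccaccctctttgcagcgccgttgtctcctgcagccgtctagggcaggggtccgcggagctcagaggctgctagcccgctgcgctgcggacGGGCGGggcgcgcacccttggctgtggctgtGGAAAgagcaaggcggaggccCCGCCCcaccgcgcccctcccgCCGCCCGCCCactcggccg
These windows are shown because partner chains went opposite ways over the numbers. Both held 4 GC boxes and 1 GGAAA core, and no TATA box, CCAAT box or AP-1 site.

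In 2 of the fibril-associated collagens, a single number stood apart from the other 3. Col14a1, which coats fibrils and regulates their growth, read -1.48, -1.84, -5.37 and -1.84 in AngII+CsA cultures 1 to 4, against -1.67, -1.83, -5.18 and -1.79 in AngII cultures 1 to 4. On both arrays of number 3 the probe was not well above background, so only a bound is known there. The other 6 arrays averaged -1.74, at least 2.58-fold above the bound of -3.11 for number 3, taken as the lowest signal above background on those 2 arrays. Its replicate test gave an adjusted p of 0.000437 on the measured values, and 0.295 without number 3. With normexp background correction, number 3 lay below the mean of the chain by less, at -0.21. Col9a2, a chain of cartilage type IX collagen, had the same feature in number 1. It read -1.48, 1.09, 0.86 and 1.04 with AngII+CsA, against -1.38, 0.97, 0.98 and 1.02 with AngII, above background on all arrays. Number 1 was thus lower than the other 3 numbers in both groups, with a span of 2.46 (5.52-fold; adjusted p = 0.000918, and 0.601 without number 1). Col9a3, its partner, was above background on 4 of 8 arrays.

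Col12a1, which sits on type I fibrils, read 0.61, 0.13, 1.01 and -0.03 in AngII+CsA cultures 1 to 4, against 0.16, 0.20, 0.42 and 0.16 in AngII cultures 1 to 4. It was higher with AngII+CsA in numbers 1 and 3 and lower in numbers 2 and 4, for a difference of 0.20 (95% interval -0.19 to 0.59; adjusted p = 0.917). Col22a1, a collagen of tissue junctions such as that of muscle and tendon, read -1.78, -1.29, -1.85 and -1.40 with AngII+CsA, against -1.71, -1.12, -1.59 and -1.06 with AngII. Its difference of -0.21 (95% interval -0.46 to 0.04; adjusted p = 0.886) had the same sign in all 4 numbers, but a second Col22a1 probe gave 0.003. Col16a1 was as near to no difference as any of the 30, at 0.01 (95% interval -0.23 to 0.25), and spanned 0.81 between numbers 1 and 2.

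Col23a1, a transmembrane collagen, read 0.85, -1.44, -1.86 and -1.94 in AngII+CsA cultures 1 to 4, against 0.43, -1.41, -1.46 and -1.77 in AngII cultures 1 to 4. Number 1 stood above the other 3 numbers in both groups, and the span of 2.50 was 5.65-fold (adjusted p = 0.00184, and 0.0922 without number 1). Its treatment difference was -0.05 (95% interval -0.41 to 0.32). The multiplexins Col15a1 and Col18a1, proteoglycan collagens of the basement membrane zone that give rise to restin and endostatin, differed by -0.10 (-0.37 to 0.17) and 0.12 (-0.33 to 0.57) between treatments.

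**Figure D3:**
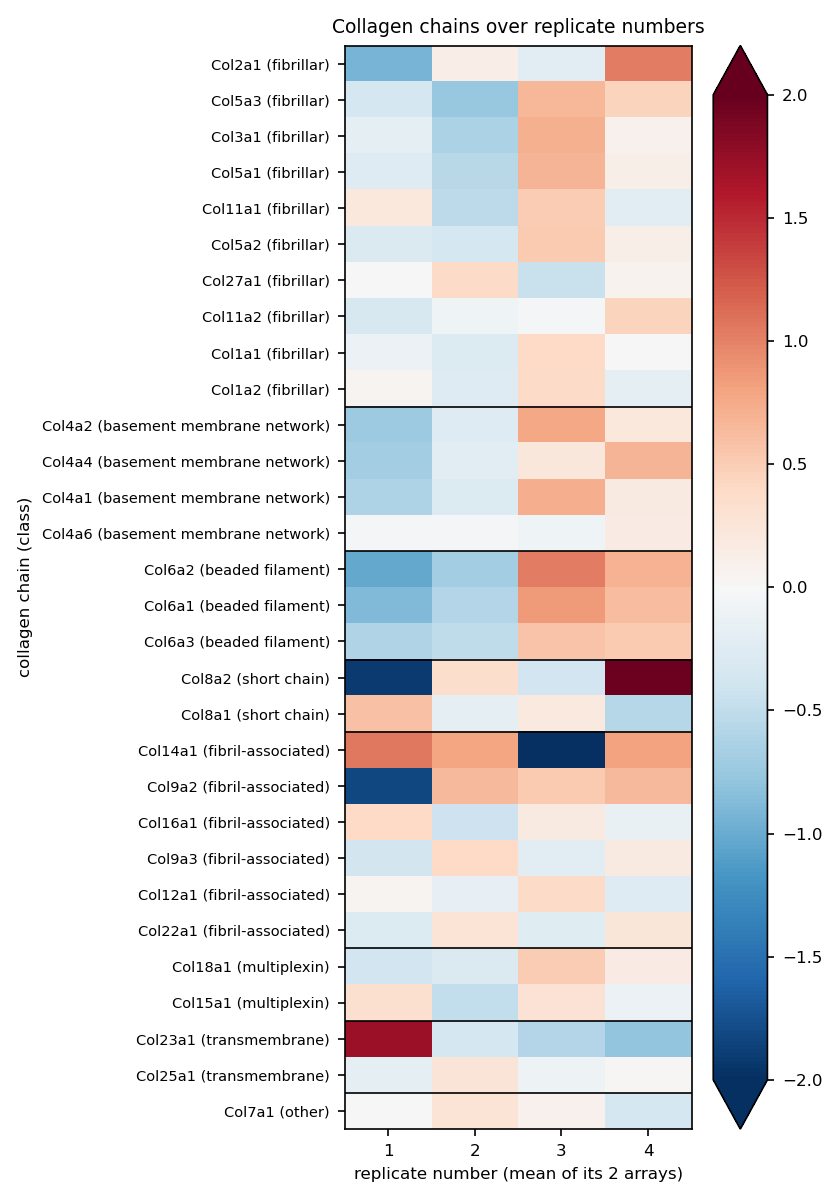
Mean of the 2 arrays of each replicate number (columns) for the 30 tested chains (rows, by class), as the log2 deviation from the mean of the chain, with red above and blue below. Values beyond 2 in size have the end colours, as Col14a1 in number 3. Numbers 1 and 2 are blue and numbers 3 and 4 red for Col6a1, Col6a2 and Col6a3, and Col8a1 and Col8a2 run in opposite directions.

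Most of the within-number differences of the chains that were over 0.5 in size fell in number 1. In it, 5 of 30 chains (16.7%) were more than 0.5 higher with AngII+CsA, against 11% of all genes. These were Col4a2 (1.37), Col4a1 (0.89), Col18a1 (0.79), Col6a1 (0.73) and Col6a2 (0.59). Col11a2 was the single chain more than 0.5 lower (-0.52), as were 2314 of 14881 genes. In either direction, 20% of the chains differed by over 0.5 in number 1, against 26.5% of all genes. Other probes gave 0.56 for Col4a1 and 0.03 for Col18a1 in number 1, so that the Col18a1 probes did not share the difference. In numbers 2, 3 and 4 the same 5 chains lay between -0.45 and 0.23. Number 1 was the most variable pair over all genes as well: differences over 0.5 in size were found for 26.5% of all genes in number 1, for 7.54% in number 2, 14.8% in number 3 and 5.9% in number 4. Without number 1, on the scaling to the 75th percentile, 25 of the 30 chains were lower with AngII+CsA, with a median of -0.10, against 0.00 over all genes. None passed limma's adjusted threshold then, and 2 of 30 had an unadjusted p under 0.05, as did 793 of 14860 genes. Taken singly, numbers 1 to 4 had 17, 15, 10 and 5 of 30 chains higher with AngII+CsA (56.7%, 50%, 33.3% and 16.7%). Over all genes the shares higher were 40.8%, 49.4%, 47.4% and 46.6%.

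The differences between numbers ran beside differences in cell type markers. The summed signal of 8 smooth muscle markers was 221, 726, 1210 and 1100 in AngII+CsA cultures 1 to 4, against 291, 712, 1370 and 1380 in AngII cultures 1 to 4, with number 1 lowest in both groups. That of 6 adventitial fibroblast markers was 105, 59.5, 69 and 48.4 in AngII+CsA cultures, against 126, 69.7, 73.2 and 51.6 in AngII cultures, with number 1 highest. Pdgfra, Pi16 and Scara5 of these were above background on all arrays and Cd34 on none. The fibroblast sum was carried mainly by Pdgfra, with means of 6.61, 5.49, 5.46 and 4.94 in numbers 1 to 4, whereas Pi16 and Scara5 were lowest in number 1, at -0.79 and 3.97. Myh11 was lowest in number 4, at -0.06, unlike the smooth muscle sum. That sum was lower with AngII+CsA in numbers 1, 3 and 4. Cnn1 of the list was lower in 4 of 4 numbers, with a difference of -1.71 (unadjusted p = 0.000339 and adjusted p = 0.459 by limma). Acta2 and Tagln differed by 0.01 and -0.02, and of the 7 tested markers of the list 4 were higher and 3 lower. Macrophage markers summed to between 6.64 and 10.8 in AngII+CsA cultures and 7.32 and 11.9 in AngII cultures, and T cell markers to between 1.19 and 1.78 in AngII+CsA cultures and 1.29 and 2.55 in AngII cultures. Endothelial markers summed to between 0.477 and 0.661 in AngII+CsA cultures and 0.611 and 0.826 in AngII cultures. The endothelial and T cell sums were lower in the AngII+CsA culture of each number, and the macrophage sum in numbers 2, 3 and 4. A sum is carried by its brightest members: the fibroblast sum was lower in the AngII+CsA culture of each number, as Pdgfra was, while Scara5 differed by 0.04 and was higher in 2 of 4. The part of these markers, and of the signal level of the arrays, in the differences of the collagens between numbers or treatments was not tested, and fewer cells of a type cannot be told apart from less RNA per cell.

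**Figure D4:**
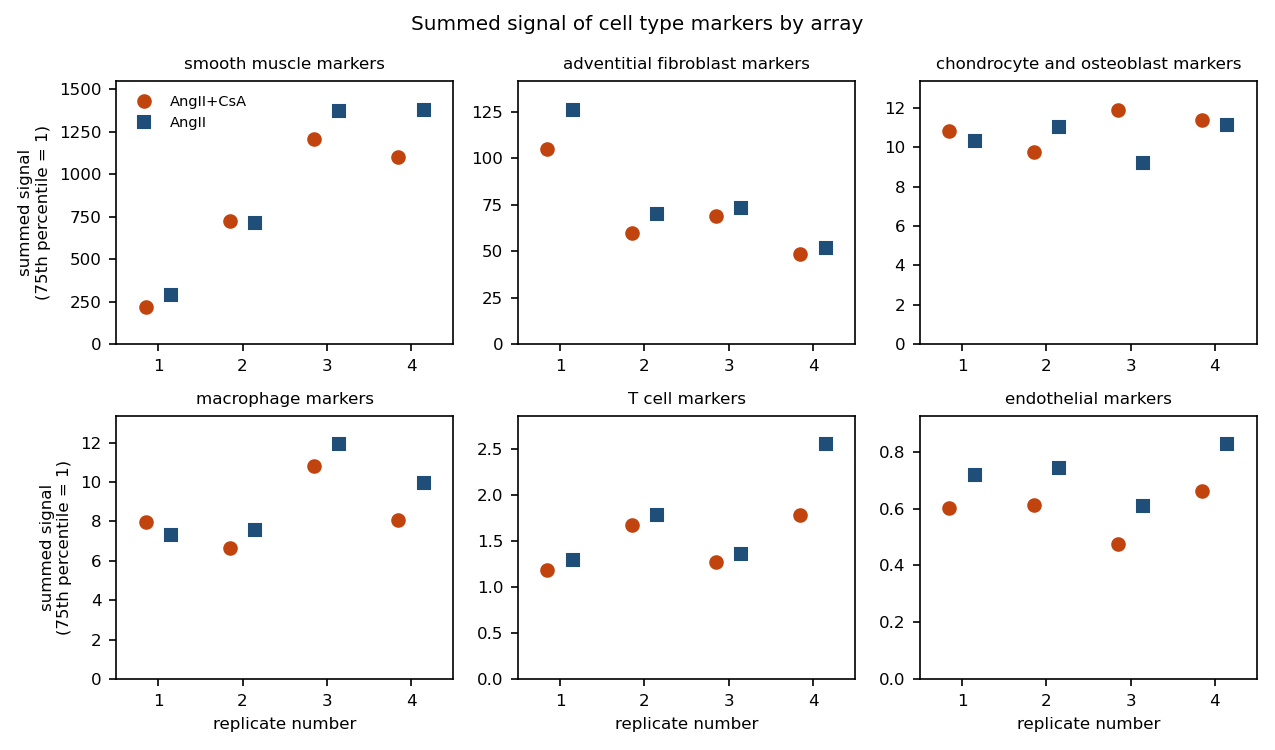
Summed signal of 6 lists of cell type markers on each array (vertical axis, linear, with the array's 75th percentile as 1, starting at 0; horizontal axis, replicate number), with circles for AngII+CsA and squares for AngII. The smooth muscle sum is lowest in number 1, at 221 and 291, where the fibroblast sum, carried mainly by Pdgfra, is highest, at 105 and 126.

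Genes that make, export, cross-link, bind or break down collagen were read from the same fit, in 7 lists of 69 genes. Of the 52 tested, 34 were higher and 18 lower with AngII+CsA, with a median of 0.04, and none passed the adjusted threshold. Over all genes, 6453 were higher and 8430 lower, with a median of -0.03. The split of the 52 genes was 45 higher and 7 lower with median scaling and 25 and 27 without number 1. P3h2, a prolyl 3-hydroxylase, was the single one with an unadjusted p under 0.05, at -0.64 (unadjusted p = 0.0238; adjusted p = 0.886 by limma). It read -3.19, -2.56, -1.76 and -2.28 in AngII+CsA cultures 1 to 4, against -1.79, -1.90, -1.76 and -1.76 in AngII cultures 1 to 4, and was above background on 3 and 4 arrays of these groups. The largest of its differences was in number 1 and there was none to 2 decimals in number 3. Of the other 13 tested genes of prolyl and lysyl modification, Plod2, a lysyl hydroxylase of the collagen telopeptides, had the next smallest p, with a difference of -0.20 (adjusted p = 0.897). Ppib, cyclophilin B, is a proline isomerase of collagen folding that binds cyclosporin, and its level differed by -0.09 (adjusted p = 0.936).

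In each of the other lists the 2 members with the smallest p missed the threshold too. All 5 tested cross-linking genes were higher with AngII+CsA, with a median of 0.21, though 3 of 5 were with normexp and 2 of 5 without number 1. They include Lox, the lysyl oxidase that starts cross-links (0.21; adjusted p = 0.895), and Loxl4 (0.24; adjusted p = 0.899). Lox was above background on 3 arrays of each group. Its largest difference, 0.52, was in number 3, where it was dimmest, at -3.12 with AngII+CsA and -3.64 with AngII. Among the receptors, Itgb1, the beta subunit of the collagen-binding integrins, differed by 0.16 and was higher in 4 of 4 numbers, and Ddr2, a receptor kinase for fibrillar collagen, by 0.17. For folding and export, the chaperone Hspa5 differed by 0.08 and Creb3l1, a transcription factor for collagen secretion, by 0.13. In propeptide cleavage, Pcolce2, an enhancer of procollagen cleavage, differed by 0.22 and the protease Furin by -0.16. For breakdown, the inhibitor Timp3 differed by 0.20 and Ctsk, the collagen-degrading cathepsin K, by -0.19. Of the proteins that bind to fibrils, Fn1 (fibronectin) differed by 0.21 and Sparc by 0.10. Number 1 carried differences here as well: 14 of 52 genes (26.9%, against 11% of all genes) were more than 0.5 higher with AngII+CsA in number 1. So were 2 in number 2 (3.85%, against 3.59%), 3 in number 3 (5.77%, against 6.08%) and 0 in number 4 (against 2.51%). Between replicate numbers, 42 of the 52 passed the replicate test, against 68% of all genes.

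The 10 chains without a test were Col10a1, Col13a1, Col17a1, Col19a1, Col20a1, Col24a1, Col28a1, Col4a3, Col4a5 and Col9a1. Col17a1, Col20a1, Col28a1, Col4a3 and Col4a5 were above background on no array. Col9a1 was above background on 3 AngII+CsA arrays and 0 AngII arrays, while Col19a1 and Col24a1 were so on 0 AngII+CsA arrays and 2 AngII arrays. Without a filter on dim probes, all 40 chains entered the fit, none passed the adjusted threshold and 3 had an unadjusted p under 0.05, as did 1572 of 28785 genes. Agreement between probes was limited: 13 tested chains had more than 1 probe above background, and of the 14 comparisons of another probe with the one tested, 9 had the same sign of the treatment difference, 9 the same highest number and 6 the same lowest number. Probes that failed the filter are not in these counts. Every other probe of Col14a1, Col1a2, Col23a1, Col25a1, Col27a1, Col4a2, Col4a4, Col4a6 and Col6a2 was above background on 0 or 1 arrays, and that of Col16a1 on 2. Col12a1, Col5a2, Col6a1, Col7a1, Col8a2, Col9a2 and Col9a3 had a single probe on the array. The values of all these chains thus rest on 1 probe each.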

How the data were processed

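Per the file headers, the 8 one-colour Agilent arrays, annotated on build mm7, were read with Feature Extraction 9.5.3.1. The authors deposited the processed signal, a linear intensity that this software had background-subtracted. A log2 table deposited by the authors, whose scale and centring constant are unknown here and whose columns have a median of 3.01, was used as an alternative. Its counts were close to those after quantile normalization, with 8136 against 8174 genes past the replicate test. These settings are thus not independent checks.

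From each log2 processed signal the array's 75th percentile was subtracted. Control and outlier spots were left out and spots of a probe averaged. Probes above background on at least 4 of 8 arrays were kept (19531), with the brightest probe per gene. Gene symbols came from a RefSeq table by accession for 22951 probes. Differences are AngII+CsA minus AngII, fitted over 14883 genes with limma 3.58.1 under R 4.3.3 (moderated two-sided tests, replicate number as a block, Benjamini-Hochberg adjustment); the replicate test is the moderated F-test of the number in the same fit. The pairing comes from the labels' replicate numbers and the shared slides, and deviations from the group means, over genes, had correlations of 0.70 to 0.86 for same-numbered arrays and -0.76 to 0.26 for others. The fit was tested on simulated data. In both tests the p-values are scaled by the spread of the within-number differences, moderated over genes. The spread between numbers is taken out by the block in the treatment test and is the effect asked about in the replicate test. The number of arrays limits the precision. The collagens, the gene lists and the tests were chosen with earlier results of these data known. Arrays were described for the type I, III, V and common type IV chains, the 4 higher and 4 lower chains of smallest p, and the 6 with the smallest p between numbers; of each list of other genes, the 2 with the smallest p were named. Alternatives covered the block, background correction, scaling, filter, outlier spots, probe choice, variance model, the deposited table and leaving out each number.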

Additional observations from a re-analysis of the deposited data

Results flagged for a closer look

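In 6 of 60 groups of 4 cultures (30 chains in 2 groups each), 1 culture lay far from the other 3 by Dixon's test, which flags about 1 in 20 groups by chance. Levels are log2 over the array's 75th percentile. Col14a1 was at -5.37 in AngII+CsA replicate 3, where the other 3 cultures lay between -1.84 and -1.48. In AngII replicate 3 it was at -5.18, with the others between -1.83 and -1.67. Col14a1 was not well above background on either array. Col9a2 was at -1.48 in AngII+CsA replicate 1, with the others between 0.86 and 1.09, and at -1.38 in AngII replicate 1, with the others between 0.97 and 1.02. Col23a1 was at 0.43 in AngII replicate 1, with the others between -1.77 and -1.41. Col12a1 was at 0.42 in AngII replicate 3, with the others between 0.16 and 0.20. For Col14a1 and Col9a2 the culture of the same number stood apart in both groups.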

How the results depend on the processing

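No collagen chain and no gene of the other lists passed the adjusted threshold in limma's test in any of the 15 alternative settings. In the paired comparison, 1 chain had an unadjusted p under 0.05; with no replicate block 0 chains and 0 of all genes passed, 42 genes had an unadjusted p under 0.05, and the median difference over the chains was -0.043 in both. With the number as a random block 6 genes passed. The median difference was 0.057 with median scaling (all genes 0.074), 0.033 with normexp, and between -0.099 and -0.003 without 1 of the replicate numbers. The count of chains that differed between numbers, 24, was 22 with normexp (73.3%, all genes 55.8%), 17 after quantile normalization (56.7%, all genes 54.9%) and in the deposited table (56.7%, all genes 54.7%), 25 with median scaling (83.3%, all genes 77.8%) and 17 to 22 without 1 number (56.7% to 73.3%, all genes 43.9% to 62.3%); of 387 chain tests between numbers, 46 lost and 9 gained a call. Of 447 recomputed chain differences, 406 kept their sign and 41 turned, none past the threshold. The 406 include settings that left every estimate as it was, so that no sign could turn. These were the fits without a block or with a random block, the other variance model, the other filters and the fit with all probes kept. With normexp background correction, the difference changed sign for Col15a1 (0.034), Col1a1 (0.053), Col27a1 (-0.15), Col2a1 (0.031), Col4a4 (0.06), Col5a1 (0.031), Col5a2 (0.095) and Col9a2 (0.012). After quantile normalization, it did so for Col14a1 (0.078) and Col9a3 (0.041). With median scaling, it did so for Col11a1 (0.026), Col14a1 (0.088), Col15a1 (0.003), Col1a1 (0.021), Col23a1 (0.054), Col2a1 (0.007), Col4a4 (0.014), Col5a2 (0.061), Col8a2 (0.038), Col9a2 (0.08) and Col9a3 (0.044). In the authors' deposited table, it did so for Col14a1 (0.079) and Col9a3 (0.04). Leaving out 1 number at a time gave the following ranges for the chains whose sign turned, with the number that turned it in brackets: Col11a1 -0.186 to 0.045 (2), Col14a1 -0.08 to 0.047 (3), Col16a1 -0.018 to 0.036 (3), Col18a1 -0.106 to 0.25 (1), Col23a1 -0.2 to 0.073 (3), Col27a1 -0.264 to 0.307 (4), Col4a1 -0.047 to 0.323 (1), Col4a2 -0.096 to 0.457 (1), Col4a4 -0.134 to 0.05 (3), Col5a3 -0.004 to 0.195 (1), Col6a1 -0.164 to 0.212 (1), Col6a2 -0.149 to 0.197 (1 and 2), Col6a3 -0.002 to 0.232 (1), Col8a1 -0.007 to 0.118 (1), Col9a2 -0.066 to 0.014 (1 and 3), Col9a3 -0.169 to 0.086 (2). The cause was not tested, other than that leaving out number 1 removes its own large differences. Chains near background (Col14a1, Col9a3, Col27a1) are limited by signal.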
